A study of Mus musculus with 11 samples.

Results

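The genes described here are 10 genes of the unfolded protein response and the integrated stress response, taken by symbol from the table of gene counts. They are the stress sensors Ern1, Ern2, Eif2ak3 and Atf6, the transcription factors Xbp1, Atf4 and Ddit3, and the stress-induced genes Trib3, Asns and Chac1. All 10 were among the 43346 genes of the table, and all 10 passed the filter on low counts that left 19863 genes for testing. They were compared in colon tissue of 5 germ-free and 6 humanized mice.

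All 11 animals were male Swiss Webster mice raised germ-free, with no engineered allele named in their labels, and were studied at 8 to 10 weeks of age. The humanized mice received 300 μL of a human stool suspension by oral gavage at 4 to 5 weeks of age and then carried the microbiota for 4 to 5 weeks, while the germ-free mice stayed without microbes. The stool came from 1 donor, only males were sequenced, and the RNA came from pieces of colon that hold several cell types. A lower level in such bulk RNA can come from fewer cells of a type or from less RNA per cell, and these cannot be told apart here.

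Secretory cells fold their products in the endoplasmic reticulum (ER), and unfolded protein there activates the sensors IRE1, PERK and ATF6. IRE1 cuts a short intron out of Xbp1 mRNA so that a potent transcription factor is made, ATF6 is released by proteolysis, and both raise ER chaperones and degradation factors. PERK is 1 of 4 kinases that phosphorylate eIF2, which slows general translation and favours translation of ATF4, a factor that induces genes for amino acid supply and, when stress lasts, Ddit3 (CHOP), Trib3 and Chac1. In the gut this machinery is best known from mucus-secreting goblet cells, Paneth cells and antibody-secreting plasma cells, and Ern2 encodes IRE1β, an IRE1 form largely limited to mucosal epithelium.

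Sequences were taken from RefSeq promoters of build GRCm38.p6, which cover 250 bases before and 50 after each gene's start. An entry was present for 8 of the 10 genes, and none for Ern2 and Atf6. The core of the CARE, the composite element bound by ATF4 with a C/EBP partner, was searched as TGATGNAA on both strands. It occurred in 3 of these 8 promoters, those of Asns, Chac1 and Trib3, against 3.97% of the 32851 promoter entries. These 3 promoters are printed because they hold the match and their genes had LFC of both signs, with the match in capitals.
Asns, chr6:7693160-7693459, minus strand: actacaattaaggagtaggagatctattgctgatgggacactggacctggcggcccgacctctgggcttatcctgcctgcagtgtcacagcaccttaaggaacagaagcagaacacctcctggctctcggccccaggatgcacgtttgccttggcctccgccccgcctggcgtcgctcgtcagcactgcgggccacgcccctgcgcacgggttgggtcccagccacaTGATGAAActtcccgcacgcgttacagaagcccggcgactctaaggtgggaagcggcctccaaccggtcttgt
Chac1, chr2:119350992-119351291, plus strand: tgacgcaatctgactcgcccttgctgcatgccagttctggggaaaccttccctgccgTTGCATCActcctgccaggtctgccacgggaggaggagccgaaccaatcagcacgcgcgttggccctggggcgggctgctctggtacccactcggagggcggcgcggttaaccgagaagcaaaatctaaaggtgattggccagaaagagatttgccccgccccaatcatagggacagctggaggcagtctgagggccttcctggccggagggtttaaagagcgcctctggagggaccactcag
Trib3, chr2:152344011-152344310, minus strand: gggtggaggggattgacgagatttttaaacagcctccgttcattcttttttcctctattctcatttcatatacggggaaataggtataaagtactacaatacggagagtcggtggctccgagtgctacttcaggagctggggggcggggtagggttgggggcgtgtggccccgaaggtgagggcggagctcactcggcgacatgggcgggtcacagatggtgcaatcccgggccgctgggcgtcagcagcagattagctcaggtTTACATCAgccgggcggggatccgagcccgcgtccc

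In Asns the match lay on the gene's strand from base -23 to -16, counted from the start in the RefSeq entry, which differs from the gene ends of the count table given below. By the latter the Asns match lies inside the gene and the Trib3 match before it. The matches of Chac1, from -193 to -186, and of Trib3, from 14 to 21, lay on the opposite strand and therefore read as the reverse complement above. The ERSE, the element of ATF6 and XBP1 with NF-Y, was found in 0 of the 8 promoters and in 0.119% of all entries. The UPRE, searched as TGACGTGG, and the CRE, searched as TGACGTCA, also had 0 matches in the 8, against 0.676% and 1.79% of entries. A match is a description of letters in this window and was not tested as a binding site.

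The sequence that IRE1 removes from Xbp1 mRNA is shown because the counts cannot resolve it. It is the 26 bases in capitals, at chr11:5524282-5524307 on the plus strand of mm10, within the coding part of exon 4 of Xbp1-201 in GENCODE vM21.
Xbp1 intron with 20 bases on each side: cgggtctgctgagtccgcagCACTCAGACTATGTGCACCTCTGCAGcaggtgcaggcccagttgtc
Because 26 is not a multiple of 3, its removal shifts the reading frame. The deposited counts are per gene and add the reads of both forms, so the values of Xbp1 below are its total mRNA and say nothing about the share that was spliced.

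Of the 10 genes, Xbp1, Asns and Chac1 rose in humanized mice and 0 fell, at an FDR below 0.01 in edgeR's exact test (4 higher and 1 lower at an unadjusted p under 0.05). That is 30.0% of the 10 in the upward direction, beside 9.20% of all tested genes that rose and 10.1% that fell (19.3% called in either direction). The 10 genes were chosen with earlier results of these data known, so this share is descriptive. The median log2-fold change (LFC, humanized over germ-free) was 0.13 over the 10 genes and 0.01 over all tested genes, and 8 of the 10 LFC were above 0. The groups did not overlap in Xbp1 and Ddit3, which is 20% of the 10 genes beside 18.4% of all tested genes. edgeR's quasi-likelihood test called 1 of the 10, Xbp1, beside 13.6% of all tested genes.

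Libraries held 49097005 to 64148538 counts on genes in germ-free mice and 39125290 to 54219854 in humanized mice, and TMM factors were 1.03 to 1.12 and 0.876 to 1.03. Levels are given as RPKM (reads scaled by gene length and by the TMM-normalized size of the library), which allows levels of different genes to be compared. The epithelial marker genes summed to between 4501 and 6146 RPKM in germ-free mice and between 5184 and 7265 RPKM in humanized mice. No marker particular to colon was examined, so the tissue label itself was not tested. Many cell type markers differed between the groups. Of 9 smooth muscle markers 9 fell (median LFC -1.93), and of 7 neuron and glia markers 7 fell (-2.0). Of 8 plasma cell markers 7 rose (3.09), and of 10 goblet cell markers 5 rose (0.50). Of 11 epithelial markers 3 rose (0.27) and 8 were called in neither direction. Of 8 leukocyte markers 2 rose (0.40) and 6 were called in neither direction. Leukocyte LFC had both signs, from -0.74 (Cd68) to 1.62 (Cd79a). Humanized mouse 5 stood apart, with the lowest sums of its group in plasma cell (959 RPKM), leukocyte (32.6), smooth muscle (41.1) and neuron and glia markers (1.05). Without it the LFC was 0.65 for Xbp1 (FDR = 9.68e-10), 0.63 for Asns (FDR = 4.94e-05) and 1.35 for Chac1 (FDR = 5.39e-05), all 3 still called. The part of this shift in the results below was not tested, apart from the values given beside them.

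**Figure D1:**
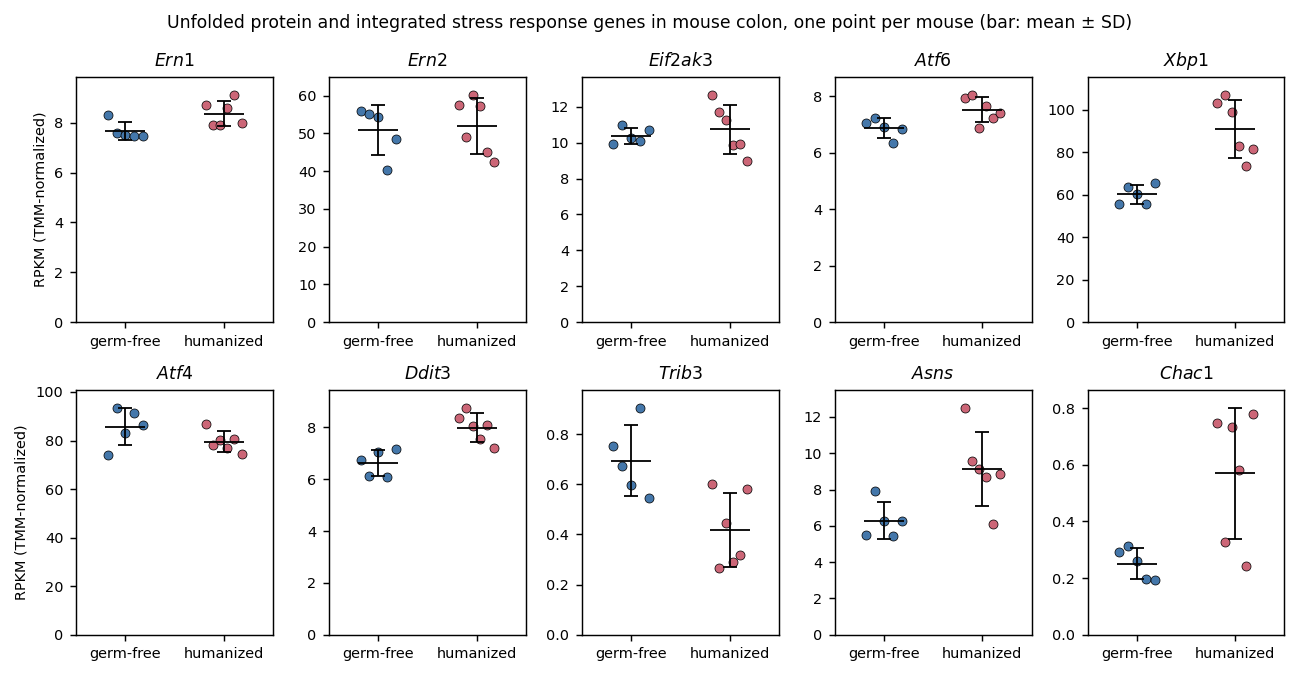
Level of each of the 10 genes in each mouse (y axis, TMM-normalized RPKM, from 0) in the 5 germ-free and 6 humanized mice, with bars for the mean ± SD. All humanized mice lie above all germ-free mice for Xbp1 and Ddit3, 5 of 6 do for Asns and Chac1, and 4 of 6 humanized mice lie below all germ-free mice for Trib3.

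The 4 sensors gave 0 calls in either direction in edgeR's exact test, its quasi-likelihood test and DESeq2, and 0 had an unadjusted p under 0.05. Ern1 (chr11:106394650-106487852), the IRE1 form found in most tissues, measured 8.31, 7.60, 7.50, 7.47 and 7.45 RPKM in germ-free mice 1 to 5 and 7.89 to 9.10 RPKM, with a median of 8.29, in humanized mice. The first germ-free mouse was apart from the other four, inside the humanized range. The LFC was 0.13 with a standard error (SE) of 0.05 and an FDR of 0.179.

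Ern2 (chr7:122169893-122186216), the mucosal IRE1 form, measured 56.0, 55.2, 54.2, 40.2 and 48.5 RPKM in germ-free mice and 42.3 to 60.1 RPKM, with a median of 53.0, in humanized mice. The groups overlapped, with 3 of 6 humanized mice above all germ-free mice. The LFC was 0.03 (SE 0.11, FDR = 0.898).

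The Ern2 level exceeded the Ern1 level in every mouse. The ratio of the 2 RPKM values within a mouse, which does not depend on how libraries are scaled, had a germ-free mean of 6.62 ± 0.766 (SD, n = 5) and a humanized mean of 6.21 ± 0.974 (SD, n = 6). The difference in mean log2 ratio was -0.10, and a two-sided exact permutation test over all splits of 5 against 6 mice gave p = 0.448, where 0.00216 is the smallest p possible.

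Eif2ak3 (chr6:70844515-70905245) encodes PERK. Its level was 9.91, 11, 10.3, 10.1 and 10.7 RPKM in germ-free mice and 9.0 to 12.6 RPKM, with a median of 10.6, in humanized mice. The humanized mice spread on both sides of the germ-free mice, with 3 above and 2 below them all. The LFC was 0.05 (SE 0.08, FDR = 0.762). In GENCODE vM21, 8.05% of its exonic bases overlap the unconfirmed gene Gm43292 on the other strand, and the sources used here do not state whether counting used strand.

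Atf6 (chr1:170704674-170867771), the sensor that is itself a transcription factor precursor, measured 7.06, 7.24, 6.90, 6.34 and 6.84 RPKM in germ-free mice and 6.88 to 8.04 RPKM, with a median of 7.53, in humanized mice. Here 4 of 6 humanized mice were above all germ-free mice. The LFC was 0.13 (SE 0.05, FDR = 0.168), close to that of Ern1. The LFC of all 4 sensors turned below 0 when libraries were scaled by total counts or by the epithelial markers, as given below.

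Among the transcription factors, Xbp1 rose, while Atf4 and Ddit3 did not pass the test. Xbp1 (chr11:5520659-5525893) measured 55.7, 63.4, 60.4, 55.5 and 65.4 RPKM in germ-free mice. The humanized mice measured 103, 107, 98.7, 82.6, 73.4 and 81.2 RPKM. The lowest humanized mouse was above the highest germ-free mouse, and mice 1 to 3 of the humanized group were higher than mice 4 to 6.

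Xbp1 thus rose 1.51-fold, from 60.1 ± 4.46 (SD, n = 5) to 90.9 ± 13.6 RPKM (SD, n = 6), with an LFC of 0.60 (SE 0.10) and an FDR of 1.52e-06. It was the 1 gene of the 10 that edgeR's quasi-likelihood test also called (FDR = 0.00155). The call held in 21 of 22 alternatives, with LFC from 0.37 to 0.65. The exception was scaling to the epithelial markers, which gave an LFC of 0.37 and an FDR of 0.0616. Here and for Asns and Chac1 below, the 22 include the looser FDR threshold of 0.05, which cannot end a call.

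Atf4 (chr15:80255184-80257540), the central factor of the integrated stress response, measured 74.2, 93.4, 83.1, 91.1 and 86.5 RPKM in germ-free mice and 74.5 to 87.0 RPKM, with a median of 79.0, in humanized mice. The humanized mice all lay within the germ-free range. The LFC was -0.11 (SE 0.07, FDR = 0.340). ATF4 is controlled largely at translation, which mRNA counts do not measure. With libraries scaled by total counts the LFC was -0.29 and passed the test (FDR = 0.00125).

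Ddit3 (chr10:127290774-127296288), which encodes CHOP, measured 6.73, 6.13, 7.04, 6.10 and 7.17 RPKM in germ-free mice. In humanized mice it measured 8.36, 8.75, 8.04, 7.55, 8.09 and 7.20 RPKM. The groups did not overlap, although the lowest humanized mouse exceeded the highest germ-free mouse by little. The LFC was 0.27 (1.20-fold, SE 0.08, FDR = 0.0524), and DESeq2 placed it past the threshold (FDR = 0.00614). With total counts or epithelial markers as the scale the LFC was 0.08 and 0.03. Of its exonic bases, 3.97% overlap Mars on the opposite strand, and 6.13% overlap a further Ddit3 gene model on the same strand that was not analysed here.

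Of the stress-induced genes, Asns and Chac1 rose, and Trib3 had an LFC below 0 that did not pass the test. Asns (chr6:7675169-7693254), which encodes asparagine synthetase, measured 5.47, 7.94, 6.26, 5.44 and 6.25 RPKM in germ-free mice. The humanized mice measured 12.5, 9.55, 9.12, 8.69, 6.09 and 8.84 RPKM. Humanized mouse 5 lay among the germ-free mice, and the other five lay above them all.

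The fold of Asns was 1.46, with an LFC of 0.54 (SE 0.16) and an FDR of 0.00755. Leaving out any 1 mouse other than germ-free 2 or humanized 5 ended this call, with FDR from 0.0122 to 0.0367 and LFC from 0.43 to 0.55. The quasi-likelihood test gave an FDR of 0.0218. The call was also lost with libraries scaled by total counts (LFC 0.36, FDR = 0.0977) or by epithelial markers (LFC 0.31, FDR = 0.235), and it held in 6 of 22 alternatives in all.

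Chac1 (chr2:119351229-119354381) encodes an enzyme that breaks down glutathione. It was the least abundant of the 10 genes in germ-free mice, with 30, 27, 25, 20 and 22 counts there and 45, 20, 57, 37, 19 and 64 counts in humanized mice. In RPKM these were 0.291, 0.315, 0.261, 0.196 and 0.192 in germ-free mice and 0.749, 0.329, 0.734, 0.581, 0.244 and 0.780 in humanized mice. Mouse 5 was again the humanized mouse within the germ-free range, and mouse 2 was just above it.

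Chac1 rose 2.27-fold, with an LFC of 1.18 (SE 0.32) and an FDR of 0.00423, and the quasi-likelihood test gave an FDR of 0.0163. Counting error alone gives a coefficient of variation (CV) of 20.1% in germ-free and 15.7% in humanized mice at these counts, and the observed CV were 22.1% and 40.6%. The spread among germ-free mice was thus about that of counting, and the spread among humanized mice was more than that. Without germ-free mouse 1, 3, 4 or 5 or humanized mouse 1, 3 or 6 the call was lost, with FDR from 0.0103 to 0.0225. It was lost as well with total counts (LFC 1.01, FDR = 0.0206) and epithelial markers (LFC 0.93, FDR = 0.0552) as the scale, and it held in 10 of 22 alternatives in all.

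Trib3 (chr2:152337422-152344032), a pseudokinase that dampens ATF4 and CHOP activity, had 21 to 120 counts per mouse. It measured 0.754, 0.674, 0.595, 0.904 and 0.545 RPKM in germ-free mice and 0.602, 0.266, 0.447, 0.290, 0.317 and 0.582 RPKM in humanized mice. Humanized mice 1 and 6 lay within the germ-free range and the other four below it. The LFC was -0.73 (SE 0.25, FDR = 0.0280). It passed the threshold with libraries scaled by total counts (LFC -0.92, FDR = 0.00405) or by epithelial markers (LFC -1.01, FDR = 0.00658).

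Ratios of 2 of these genes within a mouse were chosen after their values were seen and are given without a test. They do not depend on library scaling. The ratio of Chac1 to Trib3 RPKM was 0.216 to 0.467 in germ-free mice and 0.771 to 2.0 in humanized mice. The ratio of Asns to Trib3 was 6.02 to 11.8 and 15.2 to 35.9. Counts per mouse were low, 21 to 120 for Trib3 and 19 to 64 for Chac1. In both ratios the humanized mice were all above the germ-free mice.

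The same held for Xbp1 over Atf4, at 0.609 to 0.756 in germ-free and 0.909 to 1.37 in humanized mice. Ddit3 over Atf4, at 0.0657 to 0.0907 and 0.0961 to 0.112, and Xbp1 over Ern2, at 0.996 to 1.38 and 1.45 to 2.18, did not overlap either. The ranges met for Xbp1 over Ern1, at 6.70 to 8.77 and 8.06 to 13.5, and for Asns over Atf4, at 0.0597 to 0.0850 and 0.0754 to 0.144. Because the pairs were chosen with their values known, these separations describe the chosen pairs only. Of single tested genes 18.4% did not overlap, and the share over ratios of other gene pairs was not computed.

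By mean level in germ-free mice the order was Atf4, Xbp1, Ern2, Eif2ak3, Ern1, Atf6, Ddit3, Asns, Trib3 and Chac1. The ranges of the germ-free mice overlapped between the neighbours Xbp1 and Ern2, Atf6 and Ddit3, and Ddit3 and Asns. In humanized mice the order was Xbp1, Atf4, Ern2, Eif2ak3, Asns, Ern1, Ddit3, Atf6, Chac1 and Trib3. There the ranges overlapped between Xbp1 and Atf4, between Chac1 and Trib3, and between all neighbours from Eif2ak3 to Atf6. The deposited length of Atf4, 1724 bases, is below its exonic length of 2358 bases in GENCODE vM21, which would give a lower level, so its place against Xbp1 and Ern2 is uncertain. Among all tested genes, Xbp1 lay at percentile 95.6 in germ-free and 96.9 in humanized mice, and Chac1 at percentile 9.52 and 20.1.

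**Figure D2:**
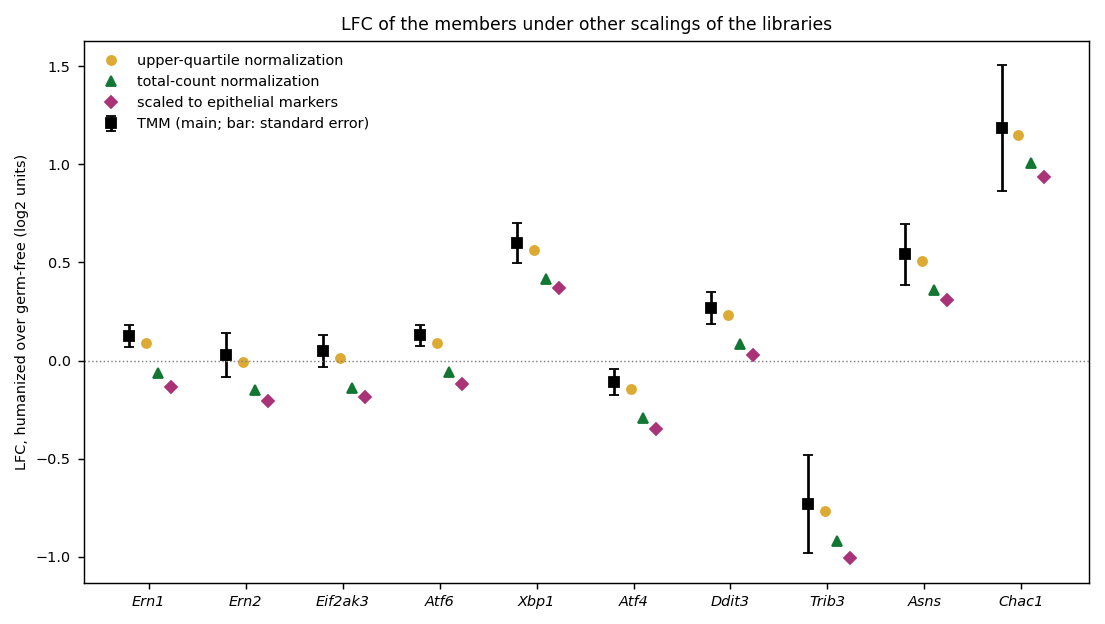
LFC of the 10 genes (y axis, log2 units, humanized over germ-free) with TMM scaling (squares, bars for the standard error) and with upper-quartile, total-count and epithelial-marker scaling (other symbols). Xbp1, Asns and Chac1 stay above 0 and Trib3 and Atf4 below 0 on each scale, while Ern1, Ern2, Eif2ak3 and Atf6 cross 0.

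Scaling shifted all genes together. Relative to TMM, scaling by total counts moved the median LFC of all tested genes by -0.19 and left 773 genes higher and 3609 lower, in place of 1827 and 1999. Scaling by the 11 epithelial markers moved the median by -0.25, with 491 genes higher and 2807 lower. On the total-count scale, 1 of the 10 genes was called higher (Xbp1) and 2 lower (Atf4 and Trib3). With epithelial markers as the scale, 0 were called higher and 1 lower (Trib3).

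The rest of both responses was followed in 8 lists of genes, chosen with earlier results of these data known. Of their 106 genes, 104 passed the filter. In all, 24 of the 104 rose (23.1%) and 0 fell in edgeR's exact test (53 higher and 1 lower at an unadjusted p under 0.05, and 28 and 1 called by DESeq2), with a median LFC of 0.18 and 90 LFC above 0. The share is close to the 19.3% of all tested genes called in either direction, whereas 9.20% of all tested genes rose. Without humanized mouse 5, 36 rose and 1 fell. On the total-count scale 8 rose and 4 fell, and on the epithelial scale 3 rose (Canx, Gars and Derl3) and 1 fell (Atf3). The median LFC of ER chaperones stayed above 0 on these scales (0.30 with total counts and 0.26 with epithelial markers). So did those of plasma cell (2.93 and 2.89), goblet cell (0.31 and 0.24), leukocyte (0.24 and 0.22) and epithelial markers (0.08 and 0.02). Smooth muscle (-2.09 and -2.20) and neuron and glia markers (-2.16 and -2.22) were below 0 on both. The medians of the other 7 pathway lists were between -0.20 and 0.04 with total counts and between -0.27 and -0.01 with epithelial markers. With TMM they lay between -0.01 and 0.23, and both scalings moved all genes by about the same amount.

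ER chaperones and folding enzymes, known targets of ATF6 and XBP1, were the list with the highest share of calls in the exact test: 7 of 14 rose (50%), all 14 LFC were above 0, and the median LFC was 0.48. Hspa5, which encodes BiP, the main ER chaperone and the partner that holds the sensors inactive, measured 53.3, 61.2, 62.5, 64.6 and 64.9 RPKM in germ-free mice. The humanized mice measured 128, 124, 118, 72.2, 63.8 and 79.7 RPKM. Mice 1 to 3 of the humanized group were well above mice 4 to 6, and mouse 5 lay within the germ-free range.

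The LFC of Hspa5 was 0.67 (SE 0.18, FDR = 0.00194). Its promoter is printed because it holds the ERSE (capitals, from base -65 to -47) that 0 of the 8 promoters above held.
Hspa5, chr2:34771840-34772139, plus strand, GRCm38.p6: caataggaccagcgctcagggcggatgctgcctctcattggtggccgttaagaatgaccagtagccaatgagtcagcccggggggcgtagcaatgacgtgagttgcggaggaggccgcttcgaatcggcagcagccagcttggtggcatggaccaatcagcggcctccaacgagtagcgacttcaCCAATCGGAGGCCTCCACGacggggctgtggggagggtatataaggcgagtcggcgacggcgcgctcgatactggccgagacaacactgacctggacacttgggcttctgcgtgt

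Canx, the membrane-bound chaperone calnexin, was more even, with 56.9 to 60.5 RPKM in germ-free mice and 81.8 to 101 RPKM in humanized mice (LFC 0.66, SE 0.06, FDR = 5.53e-16). Dnajb9, a BiP co-chaperone that is a known XBP1 target, measured 17.5 to 24.3 and 24.6 to 37.3 RPKM, with its highest level in humanized mouse 5 (LFC 0.54, FDR = 0.000161). Pdia4, a disulfide isomerase, also rose (LFC 0.58, FDR = 0.000193), as did the calcium-binding chaperone Calr (LFC 0.42, FDR = 0.00890). Pdia3, among the most abundant of the list, was called in neither direction (LFC 0.27, FDR = 0.0645). Hsp90b1 (LFC 0.53) and the co-chaperone Dnajb11 (LFC 0.31), which also rose, are named after their values were seen.

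This list depended on single mice and on the scale. Without humanized mouse 5, 12 of its genes rose, and without germ-free mouse 1, 4 did. The quasi-likelihood test called 4, beside 5 of the 17 genes of ER translocation and vesicle transport, total-count scaling left 2 calls, and scaling to the epithelial markers left 1, Canx (LFC 0.41, FDR = 0.00199). On that scale Hspa5 had an LFC of 0.46 and an FDR of 0.110.

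In ER translocation and vesicle transport, 7 of 17 tested genes rose and 0 fell (median LFC 0.23), and Srp54a, with at most 4 counts, was not tested. The largest LFC belonged to the translocon subunits Sec61g (0.63, FDR = 1.36e-07) and Sec61b (0.49, FDR = 3.38e-05), the signal peptidase subunit Spcs2 (0.44, FDR = 6.10e-05) and the translocon-associated protein Ssr4 (0.41, FDR = 6.08e-06). Abundant Ssr3 rose too (LFC 0.33, FDR = 0.00201), and the signal recognition particle receptor Srpr was called in neither direction (LFC 0.17, FDR = 0.0939). Total-count scaling left 2 calls in this list and scaling to the epithelial markers 0.

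In ER-associated degradation 3 of 14 rose and 0 fell (median LFC 0.15). Derl3, a derlin that helps move misfolded protein out of the ER, measured 0.819, 0.157, 0.858, 0.408 and 0.653 RPKM in germ-free mice and 1.12 to 4.57 RPKM in humanized mice, lowest in mouse 5. Its LFC of 2.28 (SE 0.45, FDR = 2.28e-05) was the largest of the 104. Edem2, a mannosidase-related factor (LFC 0.31, FDR = 0.000695), and the ATPase Vcp (LFC 0.23, FDR = 0.00480) rose by less. The abundant Vimp was called in neither direction (LFC 0.05, FDR = 0.689). With total counts Derl3 alone stayed higher, and Herpud1, named after its value was seen, was lower (LFC -0.21, FDR = 0.00877). On the epithelial scale Derl3 was the only call.

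In the list of eIF2 kinases, eIF2 and eIF2B subunits and phosphatase subunits, 2 of 13 rose and 0 fell (median LFC 0.11). Both are subunits of eIF2 itself, Eif2s2 (LFC 0.73, SE 0.12, FDR = 2.29e-07) and Eif2s3x (LFC 0.30, SE 0.06, FDR = 0.000214), and their groups did not overlap. Eif2s3x lost its call with total counts (LFC 0.12, FDR = 0.187). On the epithelial scale both lost it (Eif2s2 FDR = 0.0121, Eif2s3x FDR = 0.755). The phosphatase subunit Ppp1r15b had an LFC of 0.06 (FDR = 0.694), and no kinase of the list was called.

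Among ATF4-linked genes of amino acid synthesis and transport, 1 of 14 rose and 0 fell (median LFC 0.20). That gene was Phgdh, the first enzyme of serine synthesis, at 0.930 to 1.90 RPKM in germ-free and 1.11 to 4.43 RPKM in humanized mice (LFC 1.33, SE 0.32, FDR = 0.000830). The abundant Cth (LFC 0.32, FDR = 0.0179) and the transporter Slc38a2 (LFC 0.19, FDR = 0.0378) did not pass the threshold. With total counts Phgdh stayed higher, and Slc3a2, named after its value was seen, was lower (LFC -0.30, FDR = 0.00647). On the epithelial scale 0 genes of this list were called (Phgdh FDR = 0.0102). Of 12 aminoacyl-tRNA synthetases, 3 rose and 0 fell (median LFC 0.17), Gars (LFC 0.71, SE 0.06, FDR = 7.52e-19), Sars (LFC 0.40, FDR = 8.11e-07) and Nars (LFC 0.39, FDR = 0.00105), which charge glycine, serine and asparagine tRNA.

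Of 12 tested stress regulators linked to ATF4 and CHOP, 1 rose and 0 fell (median LFC -0.01). It was Ero1l, an oxidase of ER disulfide formation, at 13.1 to 15.2 RPKM in germ-free and 17.4 to 22.9 RPKM in humanized mice (LFC 0.44, SE 0.08, FDR = 1.16e-05). The abundant Nupr1 (LFC 0.48, FDR = 0.0245) and Cebpg (LFC 0.17, FDR = 0.161) did not pass, and Fgf21, with at most 2 counts, was not tested. Atf3, named after its value was seen, had an LFC of -0.75 (FDR = 0.0122) and was the lowest of the list. It passed the threshold with total counts (LFC -0.94, FDR = 0.000601) and on the epithelial scale (LFC -1.0, FDR = 4.58e-05), and Atf5 did with total counts (LFC -0.38, FDR = 0.00994). Ero1l lost its call on both scales (FDR = 0.0178 and 0.235).

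Of 8 ATF6-like factors and their activating proteases, 0 were called in edgeR's exact test, 0 in its quasi-likelihood test and 0 in DESeq2, while 2 were higher at an unadjusted p under 0.05 and at most 1 was called in any alternative. The membrane-bound factors Creb3l1 (LFC -0.06, FDR = 0.831) and Creb3l4 (LFC 0.05, FDR = 0.776) were the most abundant. Creb3l3, named after its value was seen, had an LFC of 1.57 (FDR = 0.0115).

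**Figure D3:**
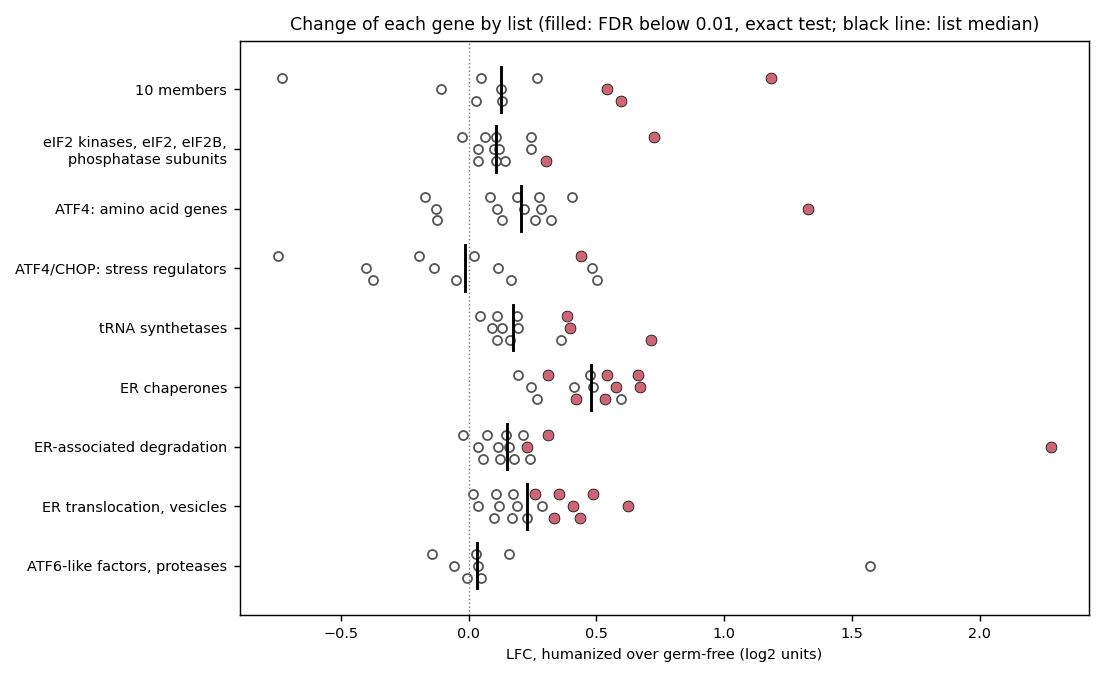
LFC of each gene (x axis, log2 units, humanized over germ-free) in the 10 genes and in 8 lists of related genes (y axis), with filled points for an FDR below 0.01 in edgeR's exact test and a black line at each list's median. ER chaperones have the highest median, 0.48, and the filled points of all lists lie to the right of 0.

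Sums of secretory cell markers were higher in humanized mice, as Xbp1 was. The summed level of 10 goblet cell markers was 4550 to 5299 RPKM in germ-free mice and 6002 to 8042 RPKM in humanized mice. Of these markers Retnlb, Spink4, Tff3, Zg16 and Fcgbp rose in the exact test, while the quasi-likelihood test called 1 of the 10. The main goblet mucin Muc2 (LFC 0.46, FDR = 0.0509), the ER disulfide isomerase Agr2 (LFC 0.15), and the goblet cell factors Atoh1 (-0.08) and Spdef (-0.05) and the secreted Clca1 (-0.02) were called in neither direction. Among humanized mice the goblet sum had the order 1, 6, 5, 3, 2 and 4, and Xbp1 the order 2, 1, 3, 4, 6 and 5. The level of Xbp1 per 1000 RPKM of the goblet sum was 11.6 to 12.3 in germ-free mice and 9.99 to 16.6 in humanized mice, so that the groups overlapped.

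For the 8 plasma cell markers the sum was 185 to 712 RPKM in germ-free mice and 959 to 5792 RPKM in humanized mice. Of the 8, Sdc1 was called in neither direction, and Tnfrsf17 was the 1 marker at 0 in a mouse, a germ-free one. The order of humanized mice in this sum was 2, 3, 4, 1, 6 and 5, and Derl3 had the order 2, 3, 4, 6, 1 and 5. Humanized mouse 5 was the lowest of its group in the plasma cell, leukocyte, smooth muscle and neuron and glia sums and in Derl3, Xbp1, Hspa5, Asns and Chac1, and the highest in Dnajb9.

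Per 1000 RPKM of the epithelial marker sum, Xbp1 was 10.5 to 12.4 in germ-free mice and 10.2 to 19.0 in humanized mice, again with overlap. Ern2 per 1000 RPKM of the goblet sum was 8.83 to 12.1 and 5.57 to 9.53. The part of goblet or plasma cells in the rise of Xbp1 and the ER genes was not tested beyond these values.

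**Figure D4:**
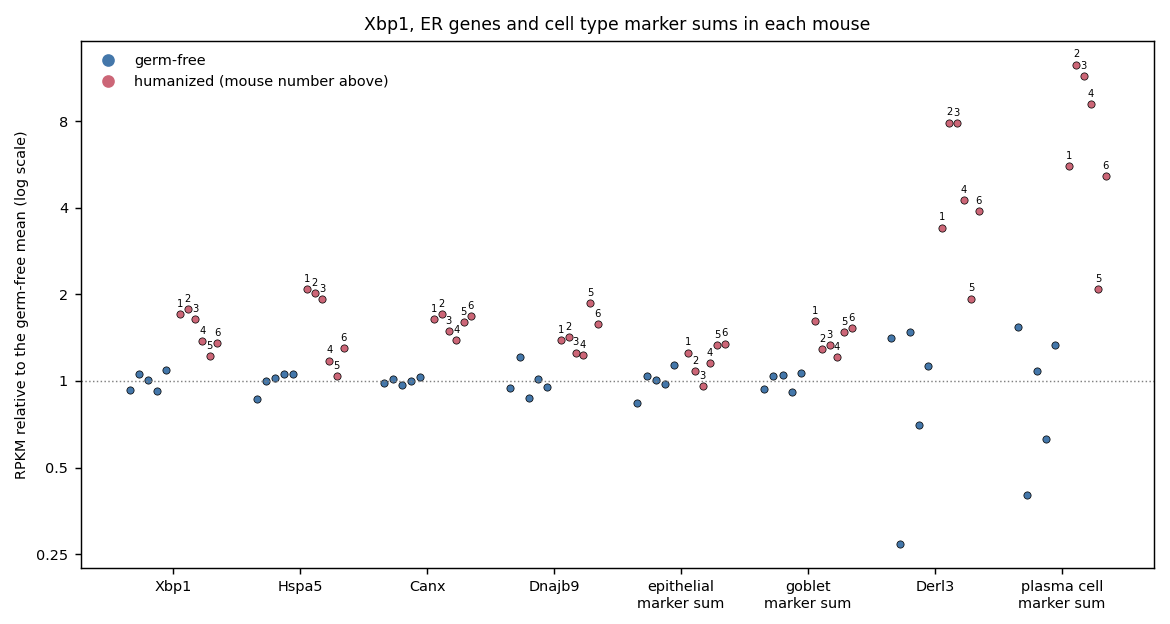
Xbp1, 4 ER genes and 3 sums of cell type markers in each mouse, as RPKM divided by the germ-free mean (y axis, log scale; numbers name the humanized mice). Humanized mice 1 to 3 are above mice 4 to 6 in Xbp1 and Hspa5, while mouse 5 is lowest in Hspa5, Derl3 and the plasma cell sum and highest in Dnajb9.

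The genes whose profiles over the 11 mice were nearest to those of the called genes were found by the root mean square (RMS) difference of centred log2 levels. For Xbp1 it was Sec61g (0.08), followed by 6430562O15Rik (0.10) and Gcnt1 (0.11), beside an SD of Xbp1 itself of 0.35. For Asns these were Shf (0.13), B3gnt3 (0.14) and Kcnk6 (0.14), beside an SD of 0.39. For Chac1 the nearest, Rpph1 (0.27), B4galnt4 (0.34) and Setd4 (0.36), had larger differences, beside a larger SD of 0.74.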

How the data were processed

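RNA from the colon of 11 mice was sequenced, and samples were grouped by their labels. The authors aligned reads to mm10 with TopHat2 2.1.0 and Bowtie2 2.2.3, counted them with featureCounts (Subread 1.4.6-p5) and deposited raw counts of 43346 genes with a gene length. Annotation release and strand setting are not given in the sources used here, and no batch is named. The length equals exonic length in GENCODE vM21 for most of the 10 genes, not Atf4, Eif2ak3 and Ern2.

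Counts were analysed with R 4.3.3 and edgeR 4.0.16 (not the edgeR version of the study) by the steps of the study's methods: filterByExpr at its defaults, TMM, classic dispersions, the exact test and Benjamini-Hochberg adjustment over 19863 genes, called at an FDR below 0.01. SE come from the quasi-likelihood fit. The code was tested on simulated data. Genes named beside the 10 were, per list, up to 4 called genes with the largest LFC and the 2 most abundant, and for called members the 3 nearest profiles; 1 gene of this rule is not reported here. Members and lists were chosen with earlier results of these data known. Alternatives were the quasi-likelihood test, DESeq2 1.42.0, other scalings, filters and thresholds, thinned counts, a replicate block and leaving out each mouse. Mice of a group differed by a mean chi-square of 21.2 to 132 per gene, so none was a duplicate. Depth was at least 39125290 counts per mouse. Mice were housed 1 to a cage per the study's methods, and p-values measure the spread between these mice.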

Additional observations from a re-analysis of the deposited data

Results flagged for a closer look

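The Ern1 level of germ-free mouse 1, 8.31 RPKM, lay far from the other germ-free mice, of which the next was at 7.60 RPKM (Dixon's test at the 95% level). It was 1 of 20 groups of values examined, and chance alone flags about 1 in 20.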

How the results depend on the processing

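The count of 3 called genes among the 10 was 1 with the quasi-likelihood test (Xbp1) and 1 on the epithelial scale (Trib3, lower, so that none of the 3 stayed called), and 1 to 3 when 1 mouse was left out. The 24 calls in the 8 lists became 12 with total counts, 4 on the epithelial scale, 42 at an FDR below 0.05, and 20 to 37 when 1 mouse was left out. A replicate block gave 1 and 9 calls. The replicate numbers name different animals and did not pair them (correlations of deviations -0.05, -0.13, 0.09, 0.09 and -0.07 for numbers 1 to 5), and number 3 alone correlated best with its own number. The LFC turned below 0 with total counts in Ern1 (-0.0628), Ern2 (-0.15), Eif2ak3 (-0.14) and Atf6 (-0.0578), and on the epithelial scale in the same genes (-0.13, -0.21, -0.19 and -0.12). Ern2 also turned with upper-quartile scaling (-0.00736), and, over a range of -0.0454 to 0.0739 when 1 mouse was left out, it was below 0 without germ-free 4 or humanized 1, 3 or 4. Eif2ak3 ranged from -0.00419 to 0.0868, below 0 without humanized 1. The cause was not tested. The difference in Ern2 to Ern1 ratio stayed between -0.17 and -0.04 in 14 alternatives, with p from 0.198 to 0.746 by permutation or sign flips. The ratio was in log2 except in an alternative that used the plain ratio of counts. Another alternative flipped signs over the 5 shared replicate numbers, which allows few p-values. Depth limits Chac1 and Trib3, with 19 to 64 and 21 to 120 counts per mouse.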
